A study of Homo sapiens with 11 samples.

Results

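The 38 genes described here are interferon-stimulated genes, read in ARPE-19 cells that expressed Oct4, Sox2, Klf4, all 3 factors together, or GFP. They were taken from the deposited table by gene symbol, and all 38 were among its 60605 features. Of these, 34 had 10 or more normalised counts in 2 or more libraries, the minimum for testing, which 18828 features met in all. OAS2, OASL, RSAD2 and XAF1 did not reach it. ARPE-19 is an established human cell line from the retinal pigment epithelium (RPE), the pigmented layer that supports the photoreceptors. Stable ARPE-19 lines were taken after 4 days of expression of an open reading frame, and polyadenylated RNA was sequenced. The GFP line, which expressed a fluorescent protein and no reprogramming factor, was the control, with 3 libraries. The Oct4, Sox2 and Klf4 lines each expressed 1 factor, and the OSK line expressed Oct4, Sox2 and Klf4, with 2 libraries each. All 5 groups shared the parent line and the time of expression. The library names of all factor lines carry the tag mC, which the GFP names lack, and what it stands for is not given. A difference from GFP cannot be split between a factor and whatever that tag marks. The labels do not give the vector, its promoter, the species of the reading frames, or whether a line is 1 clone. They do not say whether replicates were separate cultures, so p-values measure only the spread between these libraries, which may be technical.

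Interferons are secreted proteins that cells release after sensing viral nucleic acid. Type I interferon binds the receptor IFNAR1 and IFNAR2, whose kinases JAK1 and TYK2 pass the signal to STAT2. STAT2 and IRF9 are part of a complex called ISGF3, which binds the interferon-stimulated response element (ISRE) and switches on genes that block viral entry, translation and assembly. Interferon gamma acts through a site called GAS, and IRF1 is a well known target. RPE cells can respond to both kinds of interferon.

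The short runs below show the letters of the ISRE core and of the GAS site near the start sites of members the results turn on. RefSeq promoters (GRCh38.p14, from 250 bases before to 50 after each start) were found for 30 of the 38 members. IRF7, OAS2, OASL, IFIT2, IFITM2, MX2, USP18 and TRIM22 had no entry. Capitals mark the motif, with overlapping matches run together, and each line reads 5′ to 3′ on the gene's strand.
ISG15 promoter, chr1:1013364-1013419, plus strand: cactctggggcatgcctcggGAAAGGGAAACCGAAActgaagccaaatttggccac
IFI6 promoter, chr1:27672256-27672368, minus strand: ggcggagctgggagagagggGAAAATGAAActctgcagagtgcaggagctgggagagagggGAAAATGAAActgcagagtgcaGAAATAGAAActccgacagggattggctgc
OAS3 promoter, chr12:112938311-112938360, plus strand: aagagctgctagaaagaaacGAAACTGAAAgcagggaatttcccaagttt
IFIT1 promoter, chr10:89392487-89392549, plus strand: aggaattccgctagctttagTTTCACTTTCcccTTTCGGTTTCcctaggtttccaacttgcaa
BST2 promoter, chr19:17405725-17405780, minus strand: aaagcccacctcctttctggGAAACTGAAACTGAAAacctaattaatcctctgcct
HERC5 promoter, chr4:88456974-88457074, plus strand: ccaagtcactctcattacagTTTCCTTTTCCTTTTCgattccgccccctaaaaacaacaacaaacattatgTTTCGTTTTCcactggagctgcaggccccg
IRF1 promoter, chr5:132490869-132490917, minus strand: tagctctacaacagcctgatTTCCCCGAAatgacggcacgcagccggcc
The first 6 lines show the ISRE core, searched as GAAA, any 2 bases and GAAA again, and on the other strand as TTTC, any 2 bases and TTTC. The IRF1 line shows TTCNNNGAA, the GAS letters, which read the same on both strands. The ISG15, IFIT1 and BST2 runs hold 2 ISRE core matches each, the IFI6 and HERC5 runs 3 and the OAS3 run 1. The first match began 113 bases upstream of the RefSeq start site in ISG15, 156 in IFI6, 143 in OAS3, 116 in IFIT1, 130 in BST2, 125 in HERC5 and 124 in IRF1. Some window of 21 of the 30 matched members (70%) held the ISRE core, against 4.38% of 27305 genes and 3.57% of 35116 promoter windows. The GAS letters were in 9 of the 30 (30%), against 9.38% of genes and 7.66% of windows. In IFITM1, EPSTI1, IFI27 and MX1 every GAS match shared bases with an ISRE core match. The shares of members with each motif are therefore not separate findings. STAT2, IRF1, IRF9, OAS1, HERC6, CMPK2, SAMD9L, IFI35 and XAF1 had no ISRE core in these windows. The OAS3 window held another ISRE core match, at -12 from the start site, outside the run shown. The BST2 run also holds the GAS letters, at -136 from the start site, which are not marked as such. A match describes letters only, and says nothing on binding in these cells.

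Libraries held 15053300 to 19791775 recovered reads. GFP replicate 1 had 42956 features with a read and OSK replicate 1 had 32493, against 25853 to 26971 in the other 9. Each factor gene was high in the 2 lines labelled for it and low in the other 3. POU5F1, which encodes Oct4, had 67326 and 66823 normalised counts in Oct4 and 19020 and 19542 in OSK, so OSK lay below Oct4 by a log2 change of -1.80 (SE 0.18, limma adjusted p = 7.92e-07). SOX2 had 29106 and 29141 in Sox2 and 17764 and 17582 in OSK (-0.72, SE 0.20, adjusted p = 0.00800), and KLF4 had 24205 and 22142 in Klf4 and 24469.8 and 24202 in OSK (0.07, adjusted p = 0.907). Smaller rises against GFP were seen in lines not labelled for a factor. SOX2 rose by a log2 change of 1.63 (limma adjusted p = 2.6e-06) in Oct4 and 1.39 (adjusted p = 1.82e-05) in Klf4. KLF4 rose by 1.92 (limma adjusted p = 6.12e-05) in Oct4, and POU5F1 by 0.45 (adjusted p = 0.0449) in Klf4. Neither KLF4 nor POU5F1 rose in Sox2 (limma adjusted p = 0.212 and 0.251). Of 10 RPE markers, the keratins KRT8 and KRT18 were abundant, but RPE65, the visual cycle isomerase that defines mature RPE, did not exceed 4.63. The summed RPE markers were 33693 to 38117 in GFP, 23037 to 23103 in Oct4, 31056 to 31304 in Sox2, 25032 to 26346 in Klf4, and 15309 to 16405 in OSK. KRT8, KRT18 and CDH2 carried most of that sum, and the pigment cell genes moved more: PMEL, a melanosome protein, had a mean of 5147 in GFP, 612 in Oct4, 140 in Sox2, 1270 in Klf4 and 809 in OSK, TYR, the enzyme of melanin synthesis, 480.3, 44.8, 14.3, 309.8 and 86.6, and MITF, a regulator of pigment genes, 3406, 1893, 769, 2429 and 1661. Other RPE markers did not fall in every line. RDH5 had a mean of 75.1 in GFP, 189 in Oct4, 74.7 in Sox2, 462 in Klf4 and 178 in OSK. CDH2 had 5834, 6223, 10785, 2826 and 2837 in the same order, and RLBP1 had 20.1, 11.5, 8.3, 29.9 and 3.3. The 10 leukocyte markers summed to 212 in GFP replicate 1 and to between 4.57 and 36.9 in the other 10 libraries. The 5 markers of plasmacytoid dendritic cells, which make interferon, summed to 45.7 to 255, nearly all of it TCF4. The part of these differences in the results below was not tested. In bulk RNA, fewer cells of a type and less RNA per cell cannot be told apart.

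All 4 factor lines had more interferon-stimulated genes above GFP than below it. In Oct4, 19 of the 34 tested members rose and none fell, where 37.3% of all genes tested changed (20.1% rose and 17.2% fell). In Sox2, 13 rose and 2 fell, where 41.6% of all genes changed (21.7% rose and 19.9% fell). In Klf4, 13 rose and 1 fell, where 33.5% of all genes changed (17.6% rose and 16% fell). In OSK, 12 rose and 1 fell, where 39.7% of all genes changed (19.7% rose and 20% fell). As shares, 55.9%, 44.1%, 41.2% and 38.2% of the tested members changed in Oct4, Sox2, Klf4 and OSK. The Sox2 and OSK shares are close to their backgrounds of 41.6% and 39.7%, so the counts of changed members there say little by themselves. The median log2 change of the tested members was 0.91, 0.53, 0.42 and 0.33 in the same order, where the median over all genes was between -0.01 and -0.02. The 4 comparisons share the GFP libraries and are not independent of one another. Values are normalised counts, changes are differences in mean log2(value + 1), which understates changes of low genes, and a gene rose or fell when the limma p-value adjusted over all genes tested was below 0.05. A member could pass the filter through the group where it was high, so these counts describe the members and test nothing about them. Leaving out 1 library at a time, 15 to 22 members changed in Oct4, 12 to 16 in Sox2, 7 to 16 in Klf4 and 11 to 13 in OSK, and the 7 came without Klf4 replicate 1.

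**Figure D1:**
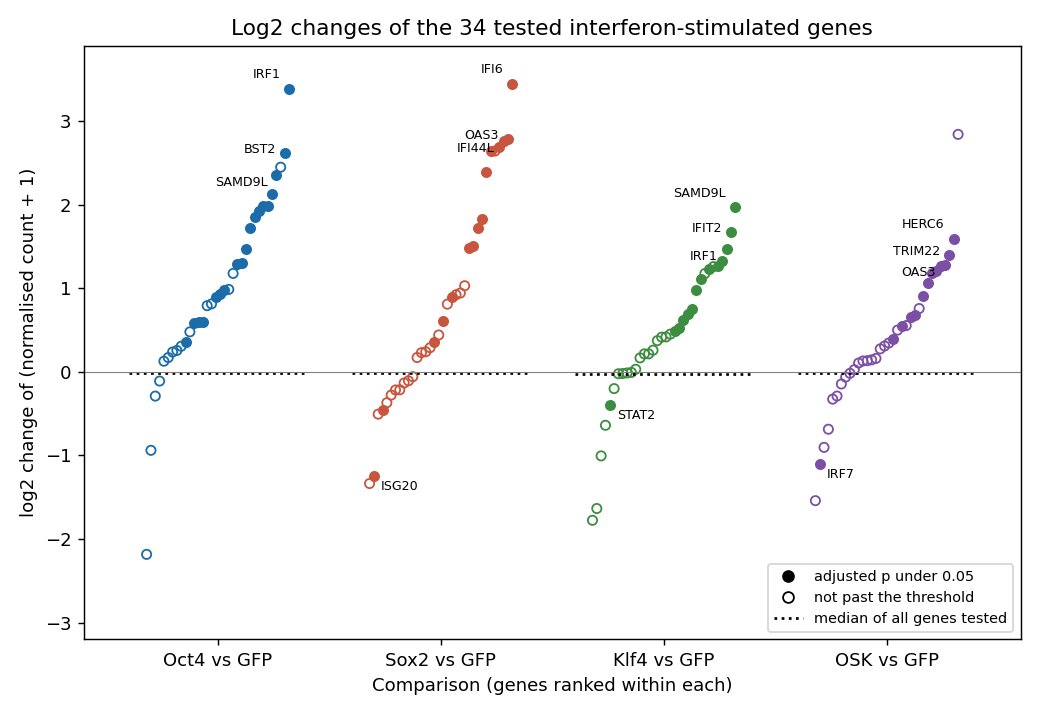
Log2 change of (normalised count + 1) against GFP for the 34 tested interferon-stimulated genes in each factor line, ranked within each comparison. Filled points passed the limma threshold, open points did not, and the dotted line is the median over all genes tested. More filled points lie above 0 than below it in every line, from 19 above and none below in Oct4 to 12 above and 1 below in OSK.

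Among the factors that carry the signal, IRF1 set the lines apart. IRF1, a transcription factor that interferon gamma induces, had normalised counts of 183, 152 and 148 in GFP, 1719 and 1648 in Oct4, 138 and 126 in Sox2, 429 and 458 in Klf4, and 366 and 406 in OSK. Both Oct4 libraries stood far above all others, Klf4 and OSK lay between, and both Sox2 libraries lay below every GFP library. The log2 change was 3.39 (SE 0.11, limma adjusted p = 3.07e-12) in Oct4. It was 1.46 (SE 0.11, limma adjusted p = 5.38e-08) in Klf4 and 1.26 (SE 0.11, adjusted p = 1.71e-07) in OSK. In Sox2 it was -0.28 (limma adjusted p = 0.0553), which missed the threshold and passed without GFP replicate 3 (-0.34). IRF1 shares 22% of its exon bases with genes on the opposite strand in the GENCODE 29 annotation, and the use of strand in counting is not given in the sources used here.

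STAT2, which works with IRF9 in ISGF3, went in opposite directions in different lines. Its values were 3296, 3385 and 3569 in GFP, 4964 and 5393 in Oct4, 2340.4 and 2637 in Sox2, 2576 and 2620.0 in Klf4, and 3943 and 3609 in OSK. Oct4 lay above GFP, Sox2 and Klf4 lay below it, and OSK lay just above it, with no overlap in any line. STAT2 rose in Oct4 by 0.60 (SE 0.07, limma adjusted p = 6.85e-06), and its change was -0.46 (SE 0.07, limma adjusted p = 8.29e-05) in Sox2 and -0.39 (SE 0.07, adjusted p = 0.000507) in Klf4. In OSK the change was 0.14 (limma adjusted p = 0.133) and did not pass. IRF7, which drives the interferon alpha genes, had 555, 675 and 718 in GFP, 583 and 613 in Oct4, 537 and 645 in Sox2, 685 and 592 in Klf4, and 273 and 330.0 in OSK. The OSK libraries alone among the lines lay below all GFP libraries, and the OSK change was -1.1 (SE 0.12, limma adjusted p = 2.51e-06). IRF9, the DNA-binding subunit of ISGF3, had 154, 114 and 98.2 in GFP, 96.4 and 99.6 in Oct4, 132 and 149.8 in Sox2, 158 and 162 in Klf4, and 107 and 131 in OSK. Its GFP libraries spread widely, and no comparison with GFP passed: -0.29 (limma adjusted p = 0.238) in Oct4, 0.23 (limma adjusted p = 0.347) in Sox2 and 0.42 (limma adjusted p = 0.0955) in Klf4. Without GFP replicate 1, the highest of the 3, the Klf4 change of IRF9 was 0.59 with a limma adjusted p of 0.0131, over 0.0131 to 0.332 in all alternatives. IRF9 shares 48.4% of its exon bases with another gene on the same strand, so its counts are uncertain.

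OAS3, a synthetase whose oligoadenylates switch on RNase L to degrade RNA, rose in all 4 lines. It had 48.7, 28.3 and 38.9 in GFP, 132 and 146 in Oct4, 202 and 352 in Sox2, 97.2 and 88 in Klf4, and 105 and 82.5 in OSK. Every factor library exceeded every GFP library, and Sox2 replicate 2 was the highest. The changes were 1.86 (SE 0.25, limma adjusted p = 2.12e-05) in Oct4 and 2.79 (SE 0.25, adjusted p = 1.89e-07) in Sox2. They were 1.27 (SE 0.25, limma adjusted p = 0.000884) in Klf4 and 1.28 (SE 0.25, adjusted p = 0.000616) in OSK. OAS1, its neighbour on chromosome 12, had 24.8, 0 and 0 in GFP, 10.4 and 21.8 in Oct4, 5.61 and 50.5 in Sox2, 2.31 and 3.43 in Klf4, and 19.5 and 20.9 in OSK. Here GFP replicate 1 was high and the other 2 GFP libraries were at 0, so every line overlapped GFP, and did so only through that library. The OAS1 log2 change was 2.45 (limma adjusted p = 0.115) in Oct4, 2.64 (limma adjusted p = 0.0824) in Sox2 and 2.84 (limma adjusted p = 0.0647) in OSK, none past the threshold. Without GFP replicate 1, OAS1 was at least 5.41-fold higher in Oct4, 9.43-fold in Sox2 and 6.79-fold in OSK, against a floor of 3 reads per GFP library. The Sox2 bound rests on replicate 2, since it was 1.89-fold from replicate 1 alone, and the Oct4 bound was 3.51-fold from Oct4 replicate 1 alone. Without both GFP replicate 1 and Sox2 replicate 2 the Sox2 log2 change of OAS1 was 2.72, against 4.21 without GFP replicate 1 only. Without GFP replicate 1 the limma adjusted p was 0.000412, 0.000221 and 0.000145. Over all alternatives it ran from 8.36e-05 to 0.753 in Oct4, 0.000221 to 0.596 in Sox2 and 2.69e-05 to 0.661 in OSK, and the Sox2 change also passed without Sox2 replicate 1. IFIH1 encodes MDA5, a sensor of long double-stranded RNA, and ran from 119 to 267 over all libraries. It rose in Oct4 by 0.59 (SE 0.21, limma adjusted p = 0.0352) and in Klf4 by 0.62 (SE 0.21, adjusted p = 0.0298). Both calls were lost without GFP replicate 2 (0.44 in Oct4, 0.47 in Klf4) and without 1 library of the line, at 0.36 without Oct4 replicate 2 and 0.39 without Klf4 replicate 1.

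The IFIT proteins are a family that binds RNA, and their 4 genes lie together on chromosome 10. IFIT2 had 67.5, 63.7 and 69 in GFP, 235 and 303 in Oct4, 85.3 and 123 in Sox2, 275 and 168 in Klf4, and 156 and 148 in OSK. All factor libraries exceeded all GFP libraries, with Oct4 replicate 2 the highest. IFIT2 rose by 1.98 (SE 0.21, limma adjusted p = 1.46e-06) in Oct4, 1.67 (SE 0.21, adjusted p = 1.15e-05) in Klf4 and 1.18 (SE 0.21, adjusted p = 0.000255) in OSK. Its Sox2 change was 0.61 (SE 0.21, limma adjusted p = 0.0262), and was lost without Sox2 replicate 2 (0.35) or GFP replicate 2 (0.58). IFIT1 had 95.3, 66.8 and 84.6 in GFP, 103 and 89.3 in Oct4, 172 and 304 in Sox2, 145 and 131 in Klf4, and 114 and 145 in OSK. Sox2 replicate 2 was again the highest, and Oct4 overlapped GFP. IFIT1 rose by 1.48 (SE 0.22, limma adjusted p = 5.46e-05) in Sox2, by 0.75 (SE 0.22, adjusted p = 0.016) in Klf4 and by 0.65 (SE 0.22, adjusted p = 0.0288) in OSK. The Klf4 call was lost without GFP replicate 2 (0.61) or either Klf4 replicate (0.68 and 0.82), and the OSK call without GFP replicate 2 (0.51) or OSK replicate 2 (0.48), with DESeq2 (adjusted p = 0.0531) and with no filter on low values (limma adjusted p = 0.0769, over 0.00441 to 0.244 in all alternatives). IFIT3 rose in Oct4 by 0.89 (SE 0.17, limma adjusted p = 0.000598), and IFIT5 passed in no comparison with GFP. IFIT2 shares 10.3% of its exon bases with another gene.

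**Figure D2:**
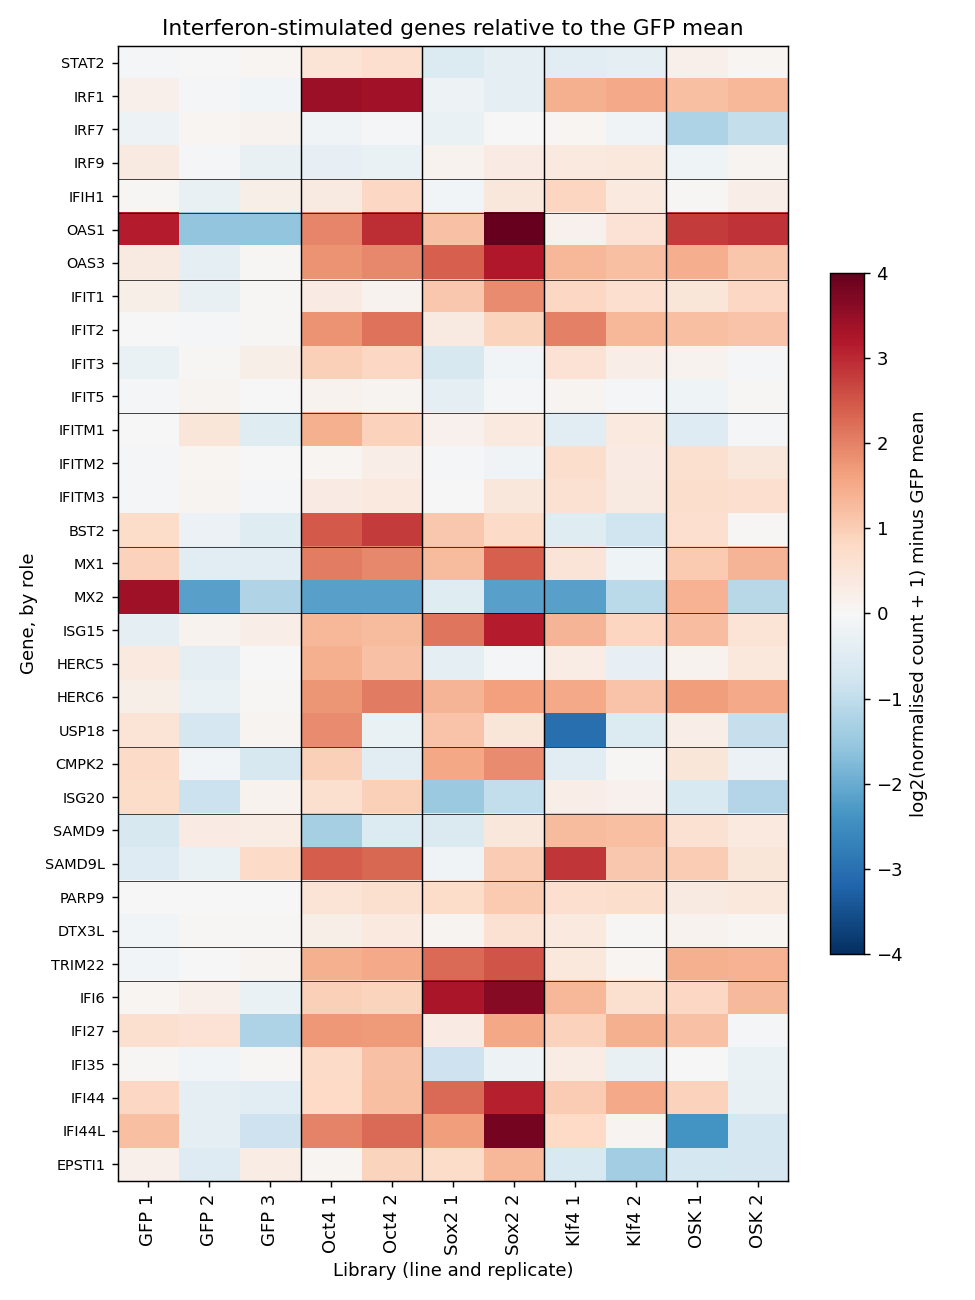
Heat map of the 34 tested interferon-stimulated genes (rows, grouped by role) in the 11 libraries (columns), as log2(normalised count + 1) minus the gene's mean over the 3 GFP libraries. Red is above the GFP mean and blue below it: IRF1 and BST2 are red in both Oct4 libraries, IFI6 and TRIM22 in both Sox2 libraries, and MX2 is highest in GFP replicate 1.

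Of the 4 membrane proteins that stop viruses at entry or exit, 2 rose in each of Oct4 (BST2 and IFITM3), Klf4 and OSK (IFITM2 and IFITM3 in both), and none of the 4 passed in Sox2. These shares, 50% and 0%, stand beside 37.3%, 33.5% and 39.7% of all genes in Oct4, Klf4 and OSK and 41.6% in Sox2. BST2 (tetherin), which holds budding virus at the cell surface, had 14.9, 7.08 and 5.83 in GFP, 51.1 and 65.2 in Oct4, 19.1 and 15.4 in Sox2, 5.78 and 4.57 in Klf4, and 14.1 and 8.8 in OSK. Oct4 stood clear of every other library and rose by 2.62 (SE 0.48, limma adjusted p = 0.000401). IFITM3 and IFITM2, which block fusion of virus with endosomes, had smaller changes at higher values: IFITM3 ran from 1167 to 1319 in GFP and from 1925 to 1981 in OSK. IFITM3 rose by 0.68 (SE 0.11, limma adjusted p = 9.85e-05) in OSK, 0.49 (SE 0.11, adjusted p = 0.0024) in Klf4 and 0.36 (SE 0.11, adjusted p = 0.0168) in Oct4. The Oct4 call of IFITM3 was lost without GFP replicate 3 (0.32) or either Oct4 replicate (0.40 and 0.31), and its Klf4 call without Klf4 replicate 1 (0.36). IFITM2 rose by 0.55 (SE 0.12, limma adjusted p = 0.00116) in OSK and 0.52 (SE 0.12, adjusted p = 0.00231) in Klf4, the latter lost without Klf4 replicate 1 (0.34). IFITM1 had 8.67 to 36.0, and its Oct4 change of 1.18 (limma adjusted p = 0.0531) passed without GFP replicate 2 (1.42) or Klf4 replicate 1 (1.18). IFITM1, IFITM2 and IFITM3 are close copies, and IFITM1 and IFITM2 share exon bases (32.5% and 22.7%), so how reads were split among them is uncertain.

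MX1, a GTPase that traps viral nucleocapsids, had 61.6, 23.3 and 23.3 in GFP, 136 and 126 in Oct4, 78.5 and 174 in Sox2, 46.3 and 28.6 in Klf4, and 68.3 and 84.7 in OSK. Oct4, Sox2 and OSK lay above all GFP libraries, and Klf4 lay within the GFP range. MX1 rose by 1.98 (SE 0.39, limma adjusted p = 0.000861) in Oct4, 1.82 (SE 0.39, adjusted p = 0.00138) in Sox2 and 1.21 (SE 0.39, adjusted p = 0.0226) in OSK. The Sox2 call was lost without Sox2 replicate 2 (1.26). The OSK call was lost without GFP replicate 2 (0.98), GFP replicate 3 (0.98), OSK replicate 1 (1.36) or OSK replicate 2 (1.06), and with no filter on low values (limma adjusted p = 0.0667). Its relative MX2 had 46.7 in GFP replicate 1 and 10.8 in OSK replicate 1, and at most 2.24 in the other 9 libraries. MX2 passed the filter only through those 2 libraries, which also had the most features with a read.

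ISG15, a ubiquitin-like protein that is joined to other proteins after interferon, had 27.8, 40.5 and 44.7 in GFP, 94.1 and 90.4 in Oct4, 166 and 335 in Sox2, 96 and 68.6 in Klf4, and 88.9 and 55 in OSK. Each of the 8 factor libraries lay above all 3 GFP libraries, and Sox2 replicate 2 was the highest of all 11. ISG15 rose by 2.64 (SE 0.30, limma adjusted p = 2.64e-06) in Sox2 and 1.3 (SE 0.30, adjusted p = 0.00276) in Oct4. It rose by 1.11 (SE 0.30, limma adjusted p = 0.00884) in Klf4 and 0.90 (SE 0.30, adjusted p = 0.0246) in OSK. The Klf4 call was lost without Klf4 replicate 1 (0.87), and the OSK call without GFP replicate 1 (0.70) or OSK replicate 1 (0.56). HERC5, the ligase that attaches ISG15, had 51.6, 30.4 and 38.9 in GFP, 107 and 89.3 in Oct4, 30.3 and 37.7 in Sox2, 48.6 and 30.9 in Klf4, and 43.4 and 52.8 in OSK. Oct4 lay above all other libraries, and the Sox2, Klf4 and OSK libraries overlapped GFP. HERC5 rose in Oct4 by 1.29 (SE 0.29, limma adjusted p = 0.0021).

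HERC6, the neighbour of HERC5 on chromosome 4 and a relative of it, had 63.5, 44.5 and 55.4 in GFP, 185 and 232 in Oct4, 140.2 and 170.4 in Sox2, 155 and 121 in Klf4, and 175 and 155 in OSK. All factor libraries lay above all GFP libraries. HERC6 rose by 1.92 (SE 0.19, limma adjusted p = 7.22e-07) in Oct4, 1.5 (SE 0.19, adjusted p = 7.81e-06) in Sox2, 1.33 (SE 0.19, adjusted p = 4.48e-05) in Klf4 and 1.59 (SE 0.19, adjusted p = 4.98e-06) in OSK. USP18, the protease that removes ISG15 and damps the receptor, was low, from 0 to 29, with its replicates far apart in Oct4 (29 and 5.72), and it passed in no comparison with GFP.

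CMPK2, a mitochondrial nucleotide kinase next to RSAD2 on chromosome 2, had 11.9, 6.07 and 3.89 in GFP, 13.9 and 4.58 in Oct4, 21.3 and 27.4 in Sox2, 4.63 and 6.86 in Klf4, and 9.76 and 5.5 in OSK. Both Sox2 libraries lay above all GFP libraries, and the Sox2 change was 1.72 (SE 0.61, limma adjusted p = 0.0333). That call was lost without GFP replicate 2 (1.66), GFP replicate 3 (1.40), Sox2 replicate 1 (1.89) or Sox2 replicate 2 (1.55), and with DESeq2 (adjusted p = 0.0693, over 0.00745 to 0.187 in all alternatives). RSAD2 (viperin), an enzyme that makes a chain-terminating nucleotide, did not exceed 6.87 in any library. ISG20, an RNA exonuclease, had 82.4, 26.3 and 53.5 in GFP, 76.6 and 95 in Oct4, 16.8 and 24 in Sox2, 59 and 54.9 in Klf4, and 31.4 and 20.9 in OSK. Both Sox2 libraries lay below all GFP libraries, whose own values differed widely. ISG20 fell in Sox2, with a change of -1.24 (SE 0.38, limma adjusted p = 0.0155), and the call was lost without GFP replicate 1 (-0.87) or Sox2 replicate 1 (-1.0).

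SAMD9L and SAMD9 are paired genes on chromosome 7 whose proteins restrict viral translation. SAMD9L had its highest mean in Oct4 and SAMD9 in Klf4. SAMD9L had 4.97, 6.07 and 13.6 in GFP, 44.1 and 41.2 in Oct4, 6.73 and 16.3 in Sox2, 60.1 and 17.1 in Klf4, and 16.3 and 11 in OSK. Oct4 and Klf4 lay above all GFP libraries, but the Klf4 replicates were far apart. SAMD9L rose by 2.36 (SE 0.56, limma adjusted p = 0.00362) in Oct4 and 1.97 (SE 0.56, adjusted p = 0.0132) in Klf4. The Klf4 call was lost without Klf4 replicate 1 (1.09) and kept without Klf4 replicate 2 (2.84). SAMD9 had 11.9, 24.3 and 23.3 in GFP, 6.97 and 12.6 in Oct4, 12.3 and 26.5 in Sox2, 47.4 and 44.6 in Klf4, and 29.3 and 25.3 in OSK. Unlike SAMD9L, it had its lowest mean in Oct4, 9.78 against 19.8 in GFP, though the libraries overlapped. Its 2 highest libraries were those of Klf4, with a change of 1.23 (SE 0.43, limma adjusted p = 0.0384). This was lost without GFP replicate 1 (0.92), either Klf4 replicate (1.19 and 1.28) or OSK replicate 2 (1.23), and with DESeq2 (adjusted p = 0.0757, over 0.026 to 0.166 in all alternatives). PARP9 and DTX3L encode partners in an ADP-ribose and ubiquitin ligase and start next to each other on opposite strands of chromosome 3. PARP9 was steady in GFP, at 271 to 274, and higher in each factor library, from 353 to 565. PARP9 rose by 0.59 (SE 0.10, limma adjusted p = 0.000213) in Oct4, 0.89 (SE 0.10, adjusted p = 2.38e-06) in Sox2, 0.69 (SE 0.10, adjusted p = 5.61e-05) in Klf4 and 0.39 (SE 0.10, adjusted p = 0.00524) in OSK. DTX3L passed in Sox2 at 0.36 (SE 0.13, limma adjusted p = 0.042). That call was lost in 13 of 22 alternatives, among them those without Sox2 replicate 2 (0.10), any GFP replicate (0.30 to 0.39), or any Oct4 or OSK library (0.36 in each).

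TRIM22 and IFI6 had their highest values in Sox2. TRIM22, a ubiquitin ligase that restricts several viruses, had 1287, 1376 and 1481 in GFP, 3729 and 3948 in Oct4, 6618 and 7950.2 in Sox2, 1856 and 1467 in Klf4, and 3671 and 3627 in OSK. Sox2 stood above all other lines, Oct4 and OSK lay between Sox2 and GFP, and Klf4 overlapped GFP. TRIM22 rose by 2.39 (SE 0.10, limma adjusted p = 2.56e-11) in Sox2, 1.48 (SE 0.10, adjusted p = 8.91e-09) in Oct4 and 1.4 (SE 0.10, adjusted p = 1.39e-08) in OSK. In Klf4 the change was 0.26 (limma adjusted p = 0.054) and missed the threshold, which it passed without Klf4 replicate 2 (0.43), GFP replicate 3 (0.31) or either Sox2 replicate (0.26). TRIM22 shares 10.7% of its exon bases with another gene. IFI6, a membrane protein that restricts flavivirus replication, had 128, 139.6 and 102 in GFP, 239 and 229 in Oct4, 1177 and 1524 in Sox2, 307 and 192 in Klf4, and 217 and 302 in OSK. Both Sox2 libraries stood far above the rest, and every other factor library lay between them and the GFP libraries. IFI6 rose by 3.44 (SE 0.19, limma adjusted p = 9.05e-10) in Sox2, 1.06 (SE 0.19, adjusted p = 0.000355) in OSK, 0.98 (SE 0.19, adjusted p = 0.000922) in Klf4 and 0.93 (SE 0.19, adjusted p = 0.00124) in Oct4.

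IFI44 and IFI44L, related genes side by side on chromosome 1, were low and highest in Sox2. IFI44 had 5.96, 2.02 and 1.94 in GFP, 5.81 and 8.01 in Oct4, 17.9 and 33.4 in Sox2, 6.94 and 10.3 in Klf4, and 6.5 and 2.2 in OSK. Sox2 lay above all other libraries, with a change of 2.69 (SE 0.65, limma adjusted p = 0.0034), which was lost at 2.26 without Sox2 replicate 2. IFI44L had 10.9, 3.03 and 1.94 in GFP, 19.7 and 24 in Oct4, 15.7 and 73.6 in Sox2, 8.1 and 4.57 in Klf4, and 0 and 2.2 in OSK. Both Oct4 and Sox2 lay above GFP, and 1 Sox2 library held most of the Sox2 signal. Its Sox2 change was 2.76 (SE 0.79, limma adjusted p = 0.00986). This was 1.68 and not past the threshold without Sox2 replicate 2, 3.84 without Sox2 replicate 1 and 3.36 without GFP replicate 1. Its Oct4 change was 2.13 (SE 0.79, limma adjusted p = 0.0442), and 11 of 21 alternatives lost it: without GFP replicate 2 (1.94) or GFP replicate 3 (1.72), without either Oct4 replicate (2.27 and 1.99) or either Klf4 replicate (2.13), and with edgeR (adjusted p = 0.0565) or DESeq2 (adjusted p = 0.0514), over 0.0034 to 0.199 in all. Without GFP replicate 1 it was 2.73 and kept the call. IFI27, a small mitochondrial protein, had 16.9, 16.2 and 3.89 in GFP, 37.2 and 36.6 in Oct4, 13.5 and 32.5 in Sox2, 20.8 and 29.7 in Klf4, and 24.9 and 9.9 in OSK. Oct4 and Klf4 lay above GFP, and the Oct4 change was 1.73 (SE 0.58, limma adjusted p = 0.0275). It was lost without GFP replicate 3 (1.11) or either Oct4 replicate (1.72 and 1.74). IFI35 rose in Oct4 by 0.97 (SE 0.21, limma adjusted p = 0.00138), and EPSTI1, from 2.29 to 20.6, passed in no comparison with GFP.

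**Figure D3:**
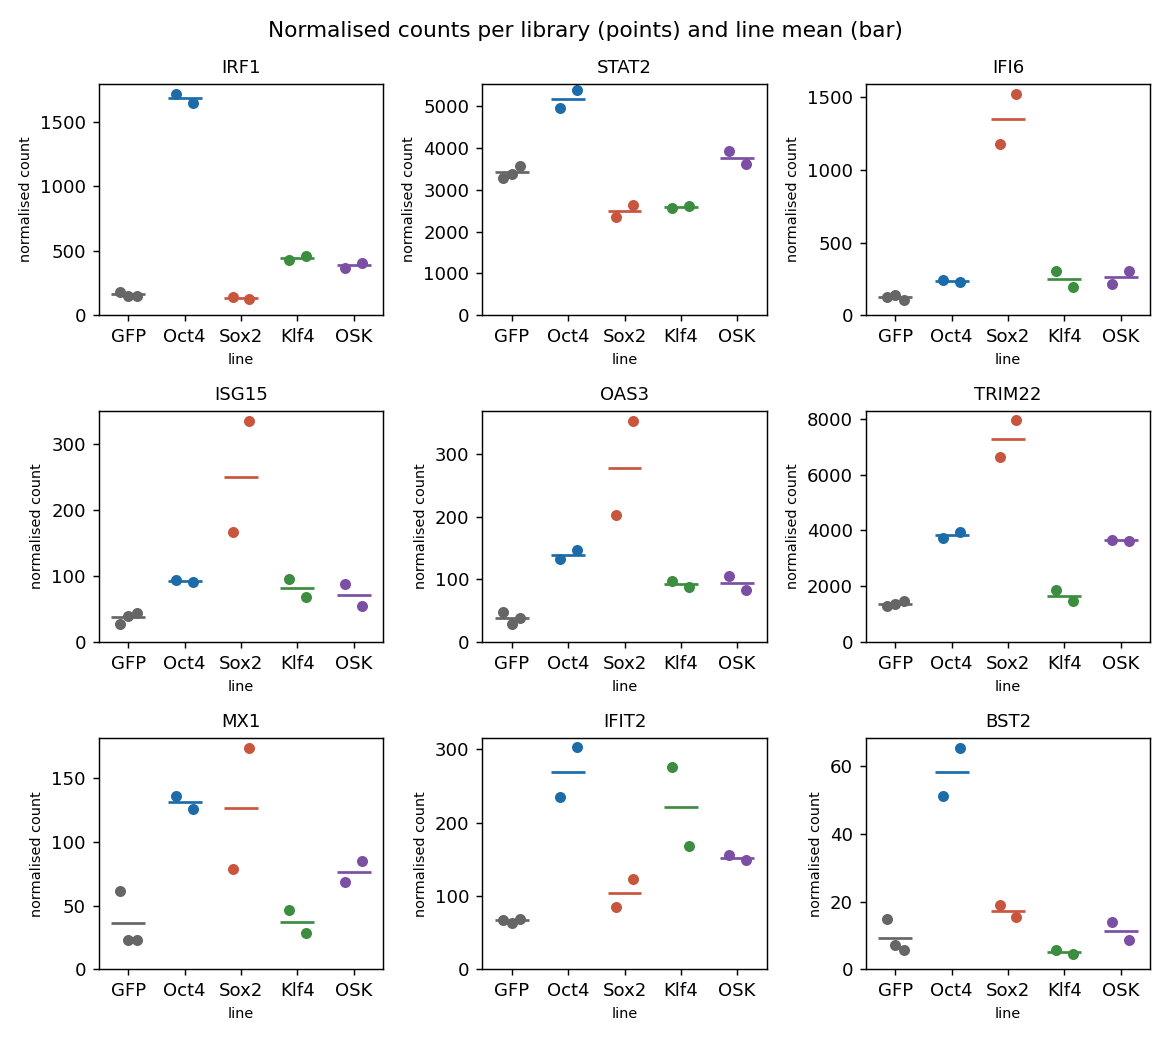
Normalised counts of 9 interferon-stimulated genes on linear axes from 0, with 1 point per library (3 for GFP, 2 for each factor line) and a bar at the line's mean. IRF1 and BST2 are highest in both Oct4 libraries, IFI6 and TRIM22 in both Sox2 libraries, and the Sox2 points for ISG15, OAS3 and MX1 lie far apart.

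The members left out of the tests were low outside 1 library. OAS2 had 21.9 in GFP replicate 1 and at most 4.34 elsewhere, OASL 21.9 and at most 4.34, and XAF1 11.9 and at most 2.24. These 3 genes were thus highest in the GFP library that also had the most features with a read and the most leukocyte marker signal (212). PTPRC, the defining leukocyte marker, was at most 2.24 in any library. The part of that library's extra features in these values was not tested.

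Levels between genes were compared per kilobase of exon (GENCODE 29, GRCh38), as normalised counts per kilobase. In GFP the IFITM3 mean was 905, followed by STAT2 at 559, IRF7 at 247, TRIM22 at 229.5, IFITM2 at 224, IFI6 at 142.5 and IFIT5 at 132. ISG15 was at 40, IRF1 at 20.6, BST2 at 8.28, OAS3 at 4.68 and MX1 at 4.18. The lowest of the 38 in GFP was RSAD2, at 0.479. Neighbours in this order can be closer than the spread between libraries, as with IRF7 (555 to 718 unscaled normalised counts in GFP) and TRIM22, so only wide gaps order the genes. In Sox2 the order changed, with IFI6 at 1561 and TRIM22 at 1210 above IFITM3 at 1080. In Oct4, IRF1 stood at 216.

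The lines were also compared with one another. GFP does not enter these differences, but its libraries are part of the shared spread and of the filter. OSK and Klf4 had the fewest members apart of the 6 pairs of lines: 3 of 34 changed between them (8.82%), 2 higher in OSK and 1 lower, where 21.5% of all genes did, 9.56% higher and 11.9% lower. TRIM22 was higher in OSK by 1.14 (SE 0.11, limma adjusted p = 1.08e-06) and STAT2 by 0.54 (SE 0.08, adjusted p = 0.00011), and IRF7 was lower, at -1.08 (SE 0.13, adjusted p = 1.95e-05). That count was 6 without GFP replicate 1, which enters this comparison only through the spread and the filter. Against Oct4, OSK had 3 members higher and 11 lower (of all genes 40.3% changed, 18.4% higher and 21.9% lower). IRF1 was lower in OSK by a log2 change of -2.12 (SE 0.12, limma adjusted p = 1.43e-09) and BST2 by -2.27 (SE 0.52, adjusted p = 0.00232). Without Oct4 replicate 1, and also without OSK replicate 1, 9 members changed between OSK and Oct4. Against Sox2, OSK had 4 higher and 10 lower (of all genes 40.5% changed, 20% higher and 20.5% lower), with IFI6 at -2.38 (SE 0.21, limma adjusted p = 1.97e-07), TRIM22 at -0.99 (SE 0.11, adjusted p = 1.84e-06) and IRF1 higher, at 1.54 (SE 0.12, adjusted p = 4.63e-08). IFI44L had 0 and 2 reads in the OSK libraries. Against a floor of 3 reads per OSK library, it was 6.68-fold lower there than in Oct4 and 13.6-fold lower than in Sox2. Counting error can take a library with 2 reads past that floor, so these folds are not lower bounds. The fold against Sox2 was 4.8 without Sox2 replicate 2 (log2 change -3.22, against -4.30 with both) and 22.5 without Sox2 replicate 1.

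The single-factor lines differed in which members were high. Between Sox2 and Oct4, 6 members were higher in Sox2 and 10 lower (of all genes 33.4% changed, 15.4% higher and 18% lower). IFI6 was 2.51 (SE 0.21, limma adjusted p = 1.49e-07) and IFIT1 1.24 (SE 0.24, adjusted p = 0.000877), both higher in Sox2, while IRF1 was -3.66 (SE 0.12, adjusted p = 6.21e-12), IFIT2 -1.37 (SE 0.23, adjusted p = 0.000189) and STAT2 -1.06 (SE 0.08, adjusted p = 3.82e-08). Between Klf4 and Oct4, 3 members were higher in Klf4 and 9 lower (of all genes 41.7% changed, 20% higher and 21.8% lower). BST2 was lower in Klf4, at -3.26 (SE 0.52, limma adjusted p = 9.72e-05), and so was MX1, at -1.82 (SE 0.43, adjusted p = 0.00285), whereas SAMD9 was higher, at 2.17 (SE 0.47, adjusted p = 0.0015). IRF9, which passed in no comparison with GFP, was higher in Klf4 than in Oct4 by 0.71 (SE 0.20, limma adjusted p = 0.00957). Between Klf4 and Sox2, 6 were higher in Klf4 and 11 lower (of all genes 40.8% changed, 20.7% higher and 20.1% lower), with IFI6 at -2.46 (SE 0.21, limma adjusted p = 1.18e-07), TRIM22 at -2.14 (SE 0.11, adjusted p = 2.27e-10) and IRF1 at 1.74 (SE 0.12, adjusted p = 8.95e-09). Without Klf4 replicate 1 the last count was 10 members in all. Each gene named in these comparisons between lines kept its call in every alternative tried.

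Replicates of 1 line did not always match. In Sox2, 29 of the 34 tested members were higher in replicate 2 than in replicate 1, with a median log2 difference of 0.46, while 50.3% of all genes tested were higher there and their median difference was 0.00. In Klf4, 23 of 34 were higher in replicate 1, with a median of -0.23 for replicate 2 against replicate 1, and the median over all genes was -0.01. In Oct4, 20 of 34 were higher in replicate 2 (median 0.08), and in OSK 14 of 34 (median -0.06). The share of members higher in replicate 2 was 32.4% in Klf4, 58.8% in Oct4 and 41.2% in OSK. Over all genes tested that share was 48.3%, 47.8% and 51% in the same order. Between the GFP libraries the medians ran from -0.21 to 0.04. The genes that lost their Sox2 call without replicate 2 (IFI44, IFI44L, MX1, IFIT2, DTX3L and CMPK2) are given above, and TRIM22, IFI6, ISG15, OAS3, IFIT1, HERC6, PARP9 and STAT2 kept theirs in every alternative. Whether the difference arose in the cultures or in the libraries was not tested.

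**Figure D4:**
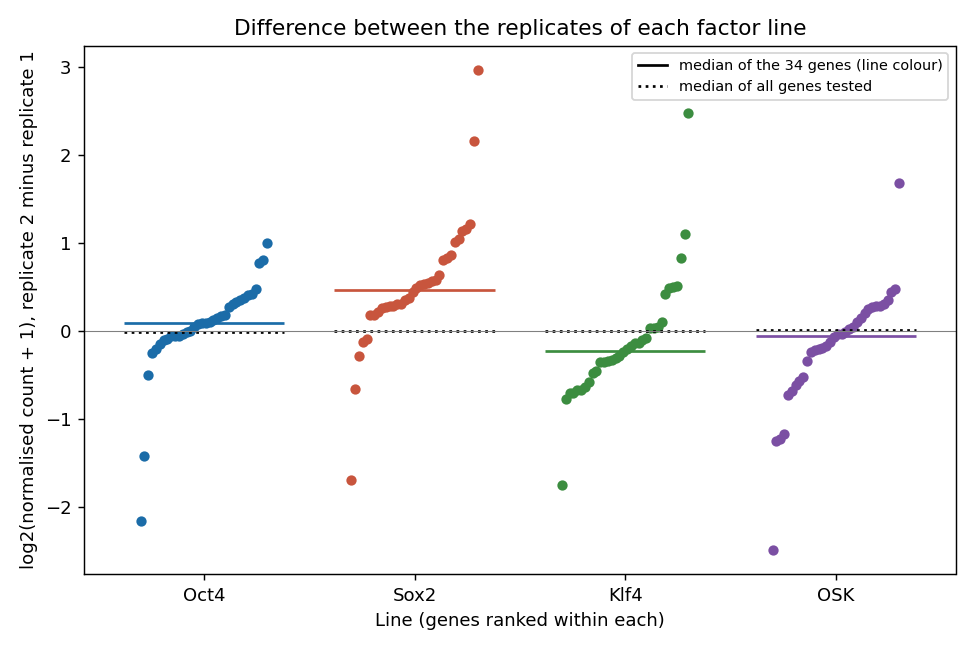
Log2 difference, replicate 2 minus replicate 1, for the 34 tested interferon-stimulated genes in each factor line, 1 point per gene ranked within its line. Solid bars are the median of these genes and dotted bars the median over all genes tested. In Sox2, 29 of 34 points lie above 0, with a median of 0.46, and the Klf4 median is -0.23.

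The pathway upstream of these genes was read from a list of ligands, receptors, kinases, sensors and further induced genes, of which 81 were tested. In Oct4, 36 rose and 7 fell (53.1%); in Sox2, 27 and 14 (50.6%); in Klf4, 29 and 16 (55.6%); and in OSK, 30 and 19 (60.5%). The shares over all genes tested are those given above. Of the interferon ligands, IFNE alone passed the minimum for testing. IFNB1, IFNA2, IFNW1 and IFNG were at 0 in all 11 libraries, where a count of 0 allows up to 3 reads, or 2.57 to 3.48 normalised counts. A few reads were seen for other ligands. IFNA1 had 8.94 in GFP replicate 1, 5.42 in OSK replicate 1 and at most 3.42 elsewhere, and IFNK had at most 3.37. IFNL1, a type III interferon, had 15.9 in GFP replicate 1 and at most 2.17 elsewhere. IFNL2 had 7.94 in GFP replicate 1 and at most 2.17 elsewhere, and IFNL3 had 4.34 in OSK replicate 1 only. IFNE, an epithelial type I interferon, had 21.4 to 55.7 and passed in no comparison with GFP. IFNAR1, a receptor chain, had 994, 976 and 1009 in GFP, 1122 and 983 in Oct4, 1553 and 1492 in Sox2, 1217 and 1112 in Klf4, and 1379 and 1401 in OSK. Its changes were 0.62 (SE 0.07, limma adjusted p = 5.14e-06) in Sox2, 0.48 (SE 0.07, adjusted p = 6.75e-05) in OSK and 0.23 (SE 0.07, adjusted p = 0.0264) in Klf4. The Klf4 call was lost without GFP replicate 2 (0.22) or Klf4 replicate 1 (0.16), and with DESeq2 (adjusted p = 0.0627) or no filter on low values (limma adjusted p = 0.0808). IFNAR2, the other chain, was low, at 8.09 to 36, and passed in Oct4 at 1.36 (SE 0.47, limma adjusted p = 0.0337), against 1.09 (limma adjusted p = 0.0779) in Sox2 and 0.83 (limma adjusted p = 0.184) in OSK. The Sox2 change passed without GFP replicate 1 (1.33) or either Klf4 replicate (1.09). The Oct4 call was lost without GFP replicate 2 (1.15), GFP replicate 3 (1.33), Oct4 replicate 1 (1.11) or Oct4 replicate 2 (1.61), and with DESeq2 (adjusted p = 0.0639) or no filter on low values (limma adjusted p = 0.0736).

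JAK2, the kinase of the interferon gamma receptor, had 650.5 to 954 in GFP against 293 and 363 in Oct4, 389 and 336 in Sox2, and 457 and 464 in OSK, while Klf4 lay within the GFP range. JAK2 fell in these 3 lines, with changes of -1.22 (SE 0.14, limma adjusted p = 3.46e-06) in Oct4, -1.07 (SE 0.14, adjusted p = 1.05e-05) in Sox2 and -0.72 (SE 0.14, adjusted p = 0.000528) in OSK.

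Among other interferon-induced genes, guanylate-binding proteins led in Oct4. GBP1, a GTPase that acts on intracellular pathogens and is a well known interferon gamma target, had 34.8, 32.4 and 57.4 in GFP, 819.8 and 806 in Oct4, 66.2 and 65.1 in Sox2, 53.2 and 29.7 in Klf4, and 43.4 and 47.3 in OSK. Its Oct4 change was 4.31 (SE 0.26, limma adjusted p = 3.53e-09), and that of GBP3 was 3.92 (SE 0.19, adjusted p = 2.65e-10). GBP3 also rose in Klf4 by 1.68 (SE 0.19, limma adjusted p = 4.97e-06) and in OSK by 0.94 (SE 0.19, adjusted p = 0.000961). GBP1 passed in Sox2 at 0.70 (SE 0.26, limma adjusted p = 0.045), a call lost in 12 of 22 alternatives, among them without GFP replicate 1 (0.59), GFP replicate 2 (0.54), either Sox2 replicate (0.68 and 0.71) or any 1 Oct4 or OSK library (0.70 in each). Sox2 had TNFSF10, the death ligand TRAIL, at 47.1 and 51.4, where GFP replicate 1 had 6.95 and all other libraries were at 0. Its change was 4.65 (SE 1.1, limma adjusted p = 0.00276). Without GFP replicate 1 it was at least 16.6-fold higher in Sox2, against a floor of 3 reads per GFP library, and DESeq2 gave adjusted p = 0.477 where the lowest p over the alternatives was 2.88e-05. DDX60, a helicase linked to RNA sensing, rose in all 4 lines, by 2.64 (SE 0.22, limma adjusted p = 9.58e-08) in OSK, 1.58 (SE 0.22, adjusted p = 3e-05) in Oct4, 1.42 (SE 0.22, adjusted p = 0.000106) in Klf4 and 1.28 (SE 0.22, adjusted p = 0.00019) in Sox2. APOL6 rose by 2.73 (SE 0.15, limma adjusted p = 2.37e-09) in Klf4, 2.56 (SE 0.15, adjusted p = 3.14e-09) in Oct4 and 2.11 (SE 0.15, adjusted p = 2.44e-08) in OSK. LGALS9, a galectin, rose by 2.72 (SE 0.31, limma adjusted p = 4.97e-06) in Klf4 and 2.11 (SE 0.31, adjusted p = 4.77e-05) in OSK. NLRC5, an activator of MHC class I genes, rose by 2.11 (SE 0.17, limma adjusted p = 9.22e-08) in OSK and 1.64 (SE 0.17, adjusted p = 2.36e-06) in Klf4, and fell in Sox2, at -0.65 (SE 0.17, adjusted p = 0.0068), a call lost without Sox2 replicate 1 (-0.60).

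The brakes on the pathway went both ways. The list of these negative regulators includes NLRC5, named above as an activator of MHC class I genes. NLRC5 counts among the rises in Klf4 and OSK and among the falls in Sox2. Of 8 negative regulators tested, 2 rose and 2 fell in Oct4 (50%, against 37.3% of all genes), 2 and 3 in Sox2 (62.5% against 41.6%), 3 and 2 in Klf4 (62.5% against 33.5%), and 2 and 3 in OSK (62.5% against 39.7%). SOCS3, an inhibitor of JAK kinases, had 374, 397 and 418 in GFP, 216 and 231 in Oct4, 52.7 and 73.6 in Sox2, 202 and 203 in Klf4, and 155 and 168 in OSK. All factor libraries lay below GFP, and SOCS3 fell in all 4 lines, with changes of -2.65 (SE 0.14, limma adjusted p = 4.71e-10) in Sox2, -1.29 (SE 0.14, adjusted p = 2.15e-06) in OSK, -0.96 (SE 0.14, adjusted p = 6.3e-05) in Klf4 and -0.82 (SE 0.14, adjusted p = 0.000229) in Oct4. SOCS1, a related inhibitor, had 53.6, 45.5 and 23.3 in GFP, 25.6 and 16 in Oct4, 40.4 and 38.5 in Sox2, 11.6 and 8 in Klf4, and 9.76 and 7.7 in OSK. Klf4 and OSK lay below all GFP libraries, with changes of -1.89 (SE 0.41, limma adjusted p = 0.00211) and -2.03 (SE 0.41, adjusted p = 0.000921). Among the other interferon-induced genes, APOL1 fell in Klf4 and OSK, at -2.39 (SE 0.53, limma adjusted p = 0.00233) and -3.02 (SE 0.53, adjusted p = 0.000247). The OSK value of APOL1 was -3.94 without OSK replicate 1 and -2.10 without OSK replicate 2. LGALS9 also passed in Oct4, at -0.98 (limma adjusted p = 0.0213), and RTP4 in Sox2, at -2.18 (limma adjusted p = 0.0333). LGALS9 was lost without GFP replicate 2 (-0.93) or Oct4 replicate 2 (-0.56), with DESeq2, and when the fit held just GFP and Oct4. RTP4 was lost without GFP replicate 1 (-1.96), GFP replicate 2 (-1.95) or Sox2 replicate 1 (-0.49), with edgeR, with DESeq2, with a pseudocount of 5, with no filter on low values and when the fit held just GFP and Sox2, and was -3.87 without Sox2 replicate 2.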

How the data were processed

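RNA-seq of polyadenylated RNA from 11 ARPE-19 libraries was read from 1 deposited table of 60605 features. The deposited values are a signal in normalised counts: read from the values themselves, they are gene counts that the authors divided by 1 factor per library. Each library's low values (to 200) were integer multiples of 1 step in 100% of cases (tolerance 0.0061), so whole reads were recovered, 15053300 to 19791775 per library. STAR 2.7.1a, featureCounts 1.6.2 and the builds GRCh38 (hg38) and GRCm38 (mm10) are named in the submitters' processing notes, with no role; the use of strand is not given in the sources used here. Groups came from the sample titles.

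The 18828 features with 10 or more normalised counts in 2 or more libraries were tested with limma 3.58.1 (R 4.3.3, lmFit and eBayes with trend) on log2(value + 1), in 1 fit of all 11 libraries. Benjamini-Hochberg adjustment of p-values ran over all genes tested, and 0.05 was the threshold. The scripts were tested on simulated data. edgeR 4.0.16 and DESeq2 1.42.0 on the recovered reads, scaling, filter, pseudocount, the libraries in the fit, a replicate block and leaving out libraries were alternatives. Members, pathway and marker lists were chosen with earlier results of these data known. Values per library are given for members past the threshold with an absolute log2 change of 1 or more against GFP, plus STAT2, IRF9, ISG15, MX1, IFIT1 and OAS1. Named pathway genes are in each comparison with GFP the 2 genes that rose most and the 2 that fell most, plus IFNAR1, IFNAR2 and IFNB1, and 1 more gene that is not reported here; other names were chosen after their values were seen. Of the remaining marker lists, photoreceptor markers summed to 168 to 309 and endothelial markers to 541 to 1358 per library. Sequences are RefSeq's for GRCh38.p14. Exon lengths and overlaps are from GENCODE 29. Intervals and floors cover counting error only.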

Additional observations from a re-analysis of the deposited data

How the results depend on the processing

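Over 10 comparisons and 22 alternatives, 87 of 137 calls of members were kept in every alternative, 50 were lost in at least 1, and none (0) turned direction. Counts of changed members beyond 1.5 times the reported ones were these. Klf4 against GFP ran from 7 to 16 leaving out 1 library, with 7 without Klf4 replicate 1. OSK against Oct4 ran from 9 to 15. OSK against Klf4 (3) ran from 3 to 6 leaving out 1 library, was 6 when the fit held only the 2 groups compared, and was 9 without both GFP replicate 1 and Sox2 replicate 2, an alternative chosen after seeing the data. Klf4 against Sox2 (17) was 11 with no filter on low values and ran from 10 to 19 leaving out 1 library. Leaving out 1 library gave 15 to 22 for Oct4, 12 to 16 for Sox2 and 11 to 13 for OSK against GFP, 12 to 16 for OSK against Sox2, 11 to 18 for Sox2 against Oct4 and 10 to 16 for Klf4 against Oct4. The cause of these moves was not tested. Replicate numbers were shared only as numbers: deviations of same-numbered libraries correlated at -0.07 to 0.04 in every pair of groups but GFP with OSK, where r was 0.435 for replicate 1 and 0.31 for replicate 2. With the replicate block, 16, 12, 15 and 11 members changed in Oct4, Sox2, Klf4 and OSK, and 15, 13, 3, 15, 11 and 17 in OSK against Oct4, Sox2 and Klf4, Sox2 against Oct4, and Klf4 against Oct4 and Sox2. Against GFP the block ended 8 calls of members (limma adjusted p 0.0566 to 0.149): IFIT1 (0.0604) and MX1 (0.0992) in OSK, IFI27, IFI44L and IFITM3 in Oct4, and CMPK2, DTX3L and IFIT2 in Sox2. With no filter on low values 12 such calls were lost (0.0586 to 0.132): the same genes and lines, and also IFIH1 in Oct4 and Klf4, SAMD9 in Klf4 and ISG15 in OSK. DESeq2 lost 4 (0.0514 to 0.0757): IFI44L in Oct4, CMPK2 in Sox2, SAMD9 in Klf4 and IFIT1 in OSK. Low genes near the floor of 3 reads, such as IFI44L and USP18, are limited by depth.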

Other observations

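Of 13 sensors and adaptors of foreign nucleic acid tested, 5 rose and none (0) fell in Oct4 (38.5%, against 37.3% of all genes), 3 rose and 1 fell in Sox2 (30.8% against 41.6%), 5 and 2 in Klf4 (53.8% against 33.5%), and 4 and 2 in OSK (46.2% against 39.7%). The shares in Oct4 and Sox2 are near or below the background. The genes below were chosen after their values were seen. TLR3, the endosomal receptor for double-stranded RNA, had 1.99, 9.10 and 15.6 normalised counts in GFP, 56.9 and 80.1 in Oct4, and 50.9 and 35.4 in Klf4, with Sox2 and OSK between 2.24 and 9.76. Its log2 change was 3.11 (SE 0.63, limma adjusted p = 0.00102) in Oct4 and 2.45 (SE 0.63, adjusted p = 0.00667) in Klf4. Without GFP replicate 1 these were 2.41 and 1.75, and the Klf4 call was lost without Klf4 replicate 1 (2.20). IFI16, a sensor of DNA, had 379.7 and 452 in Oct4 against 42.6 to 97.2 in the other 9 libraries, and its Oct4 change was 2.45 (SE 0.28, limma adjusted p = 3.29e-06). STING1, the adaptor of the DNA-sensing pathway, had 250.2 to 301 in GFP, 395 and 519.6 in Oct4, 128 and 128 in Klf4, and 104 and 102 in OSK. Its change was -1.39 (SE 0.17, limma adjusted p = 7.50e-06) in OSK, -1.08 in Klf4 and 0.73 in Oct4, the last lost without Oct4 replicate 2 (0.53). TYK2, a kinase of the type I receptor, had 1953 to 2068 in GFP, 3001 and 3956 in Klf4, and 8384 and 7700.4 in OSK, where its change was 2.01 (SE 0.09, limma adjusted p = 1.68e-10).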
